A study of Rattus norvegicus with 10 samples.

Results

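The genes described here were taken by symbol from the table of polyadenylated RNA in the supraoptic nucleus of Wistar Han rats. Most encode parts of the motile axoneme, the microtubule core of cilia and flagella that beat, or proteins that assemble it. All are called axonemal genes below, although some, such as Cfap410 and Cfap36, are known from other sites as well. The rule took the axonemal dynein chains (Dnah, Dnai), their assembly factors (Dnaaf), the nexin-dynein regulatory complex (Drc), radial spokes (Rsph), tektins (Tekt), the cilia and flagella associated proteins (Cfap), Spag6, Spag16, Spag17, Spef1, Spef2, Hydin, Foxj1, Ccdc39, Ccdc40 and Ccdc153. It found 70 of 32402 listed genes. Foxj1, the transcription factor that drives motile ciliogenesis, was not analysed here. The 5 dehydrated libraries came from rats without drinking water for 72 h and the 5 euhydrated libraries from rats that drank freely; the labels give no genotype, agent or age beyond the strain. Tissue was the bilateral supraoptic nucleus, punched from 12 frozen coronal slices with a 1 mm corer. The labels do not say whether a library is 1 animal, and water was allotted by cage. The p-values therefore cover only variation among these libraries, part of which may be technical.

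In a motile cilium, outer and inner dynein arms sit on the outer microtubule doublets and pull them past each other. Radial spokes and the central pair of microtubules regulate the arms, the nexin-dynein regulatory complex links neighbouring doublets, and tektins and other inner proteins line the doublet walls. In the brain such cilia are carried by the ependymal cells that line the ventricles and move cerebrospinal fluid, whereas neurones and astrocytes carry a single primary cilium, which does not beat and lacks these arms.

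Libraries held 24268398 to 28491926 counts assigned to genes, of which 15620 to 16848 in dehydrated and 17366 to 19411 in euhydrated libraries fell on the 70 genes. Of these genes 58 passed the filter on low counts and were tested. The 12 others had at most 14 counts in any library. Among these 12, Rsph4a and the near-identical pair Cfap58 and Cfap58l1 had 0 counts in every library. For Rsph4a this allows up to 3 counts in each, or 0.105 to 0.126 CPM. Reads that match both genes of the pair may not have been counted, so their 0 counts set no such limit. CPM is the count relative to the library total, here after TMM scaling. The values are not divided by transcript length, so the levels of different genes are not compared.

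The changes that passed the test were modest, and most of them were downward. Of 58 genes tested 8 fell, 2 rose and 48 did not pass (edgeR, Benjamini-Hochberg adjusted p under 0.05 over all 15311 genes tested). That is 13.8% lower and 3.45% higher, against 4.9% lower and 7.79% higher among all genes tested; the difference between these shares was not tested. With library totals in place of TMM factors 10 axonemal genes fell and 1 rose, against 1173 and 904 of all genes, where TMM gave 750 and 1192. The genes that fell were Dnah9, Dnai1, Drc1, Rsph10b, Cfap65, Cfap74, Tekt5 and Cfap410, and those that rose were Cfap44 and Tekt4. The median log2 fold change, dehydrated over euhydrated, was -0.12 over the axonemal genes and -0.0058 over all genes tested, and 41 of the 58 values (70.7%) lay below 0, against 51.8% of all genes. Leaving out dehydrated 1, 2 or 3 or euhydrated 3 left 4 genes lower, and leaving out dehydrated 5 or euhydrated 1 left 5. The full range over the fits without 1 library was 4 to 9 lower. Over all genes tested, every such fit gave fewer lower calls, 516 to 689 against 750 with all libraries. In such punches fewer cells of a type and less RNA per cell cannot be told apart.

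**Figure D1:**
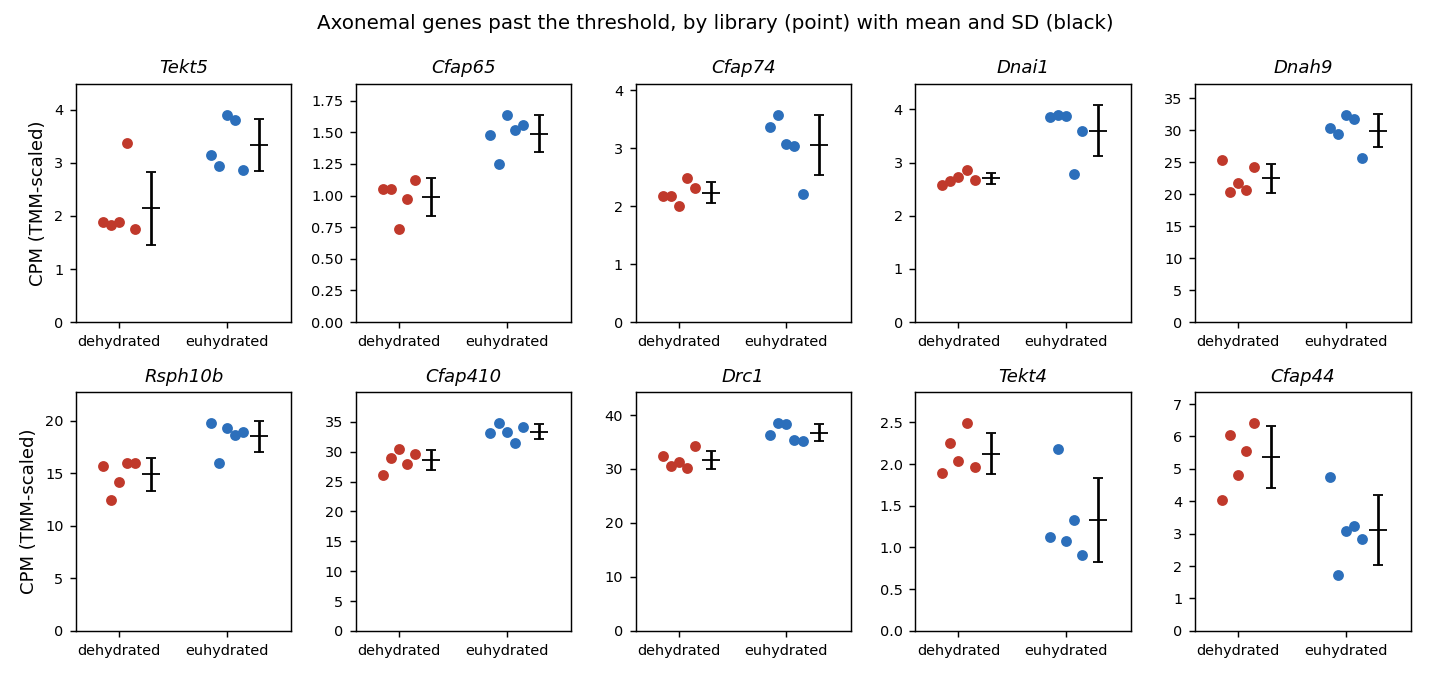
Level in CPM of the 10 axonemal genes past the threshold in each dehydrated (red, left) and euhydrated (blue, right) library, with mean and SD in black; every vertical axis starts at 0. The groups do not overlap for Dnah9, Drc1, Cfap410 and Cfap65, and single libraries reach into the other group for Tekt5, Dnai1, Tekt4, Cfap44, Cfap74 and Rsph10b.

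Dnah9 (ENSRNOG00000004171), a heavy chain of the outer dynein arm, had the smallest p of the family. It stood at 25.4, 20.3, 21.7, 20.7 and 24.2 CPM in dehydrated 1 to 5, against 30.4, 29.5, 32.4, 31.8 and 25.7 CPM in euhydrated 1 to 5. The groups did not overlap, although dehydrated 1 lay close below euhydrated 5. Dnah9 averaged 22.5 ± 2.24 CPM in dehydrated and 30.0 ± 2.63 CPM in euhydrated libraries (SD, n = 5 each), a log2 fold change of -0.41 ± 0.07 (SE; adjusted p by edgeR = 0.00159). Without overlap stood 4 of the 58 genes (6.9%), all lower, against 3.97% lower and 6.9% higher among all genes tested.

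The other outer arm heavy chains did not pass. Dnah8, best known from sperm, had 6.55, 7.05, 7.58, 4.76 and 5.48 CPM in dehydrated libraries, against 3.79, 6.08, 5.09, 5.40 and 5.36 CPM in euhydrated libraries (log2 fold change 0.29 ± 0.14, adjusted p by edgeR = 0.199). Dnah11, Dnah5 and Dnah17 had log2 fold changes of 0.02, -0.18 and 0.16. Whether Dnah9 differed in its change from these paralogues was not tested.

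Dnai1 (ENSRNOG00000013734), an intermediate chain that holds outer arm heavy chains together, also fell. Its values were 2.58, 2.65, 2.73, 2.87 and 2.68 CPM in dehydrated libraries, against 3.87, 3.90, 3.87, 2.78 and 3.59 CPM in euhydrated libraries. Euhydrated 4 lay among the dehydrated values and the 4 other euhydrated libraries above them all. The log2 fold change was -0.42 ± 0.12 (adjusted p by edgeR = 0.0339), and the call was lost without any 1 library except dehydrated 4 and euhydrated 4 (0.0559 to 0.0791). Dnai2, its partner chain, had a log2 fold change of -0.28 ± 0.19 (adjusted p by edgeR = 0.375).

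None of the 5 inner arm heavy chains tested (Dnah1, Dnah2, Dnah6, Dnah7 and Dnah12) passed in edgeR, DESeq2 or limma-voom, and 0 had an unadjusted p under 0.05. Their log2 fold changes ran from -0.29 to -0.03, all below 0. With 12.7% of all genes tested passing in edgeR, 0 of 5 says little about this role. Dnah12 varied widely within both groups, at 28.5, 37.2, 29.6, 54.2 and 32.2 CPM in dehydrated libraries, against 34.1, 38.3, 55.4, 34.4 and 41.4 CPM in euhydrated libraries. The single highest library of each group, dehydrated 4 and euhydrated 3, lay well above the rest (log2 fold change -0.17 ± 0.21, adjusted p by edgeR = 0.684).

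The assembly factors, cytoplasmic proteins that fold and preassemble dynein arms, gave 0 calls among 7 in edgeR, DESeq2 and limma-voom. Over all genes tested, 12.7% passed in edgeR, so 0 of 7 says little. Among the 7, 1 gene had an unadjusted p under 0.05 by edgeR. That gene, Dnaaf3, had 3.31, 3.00, 2.85, 3.62 and 2.96 CPM in dehydrated libraries, against 3.94, 4.08, 3.98, 3.50 and 4.75 CPM in euhydrated libraries (log2 fold change -0.36 ± 0.12, adjusted p by edgeR = 0.0508). Dehydrated 4 lay above euhydrated 4, and no other dehydrated library overlapped. Cfap298, needed for arm assembly, averaged 49.6 ± 2.76 CPM in dehydrated and 49.1 ± 1.97 CPM in euhydrated libraries (SD, n = 5 each). Its log2 fold change was 0.01 ± 0.04 (SE).

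Drc1 (ENSRNOG00000024905), a scaffold of the nexin-dynein regulatory complex, fell by a small and even amount. Its levels were 32.4, 30.5, 31.2, 30.3 and 34.3 CPM in dehydrated libraries, against 36.2, 38.4, 38.4, 35.3 and 35.2 CPM in euhydrated libraries. Every dehydrated library lay below every euhydrated one (log2 fold change -0.21 ± 0.05, adjusted p by edgeR = 0.00814). Drc3 and Drc7, of the same complex, had log2 fold changes of -0.08 and 0.29 without passing.

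Ccdc39 and Ccdc40 form the ruler that sets the repeat along the doublet. Ccdc39 had 19.6, 16.1, 19.2, 22.3 and 21.0 CPM in dehydrated libraries, against 24.2, 20.6, 21.5, 23.6 and 22.4 CPM in euhydrated libraries, with overlap (log2 fold change -0.19 ± 0.08, adjusted p by edgeR = 0.11). Ccdc40 had a log2 fold change of 0.10 ± 0.14 (adjusted p by edgeR = 0.726). Ccdc153, used as a marker of ependymal cells, stood at 1.17, 0.779, 1.29, 0.885 and 1.88 CPM in dehydrated libraries, against 1.63, 1.29, 0.907, 0.875 and 1.09 CPM in euhydrated libraries. Those values interleave (log2 fold change 0.05 ± 0.25, adjusted p by edgeR = 0.925).

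Among radial spoke genes Rsph10b (ENSRNOG00000001036) fell. It had 15.7, 12.5, 14.2, 16.02 and 15.999 CPM in dehydrated libraries, against 19.7, 15.995, 19.3, 18.6 and 18.9 CPM in euhydrated libraries. Only euhydrated 2 reached into the dehydrated range (log2 fold change -0.31 ± 0.08, adjusted p by edgeR = 0.0139). Rsph3, Rsph6a and Rsph9 had log2 fold changes of -0.15, -0.16 and -0.13, and Rsph14 of 0.12; none passed.

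Rsph1, a spoke head protein, spread more between libraries of 1 group than any other tested member relative to counting error. It stood at 5.17, 10.9, 17.3, 11.7 and 4.76 CPM in dehydrated libraries, against 4.81, 10.4, 10.3, 9.40 and 14.2 CPM in euhydrated libraries. The highest library had 3.63 times the lowest, and both lay in the dehydrated group (log2 fold change 0.02 ± 0.41, adjusted p by edgeR = 0.983). The within-group SD of its log2 CPM was 7.89 times what counting alone gives, and that of Dnah12 was 7.42 times, against a median of 1.42 over the 58 genes.

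Among central pair genes, Cfap65 (ENSRNOG00000056996) and Cfap74 (ENSRNOG00000023627) fell. Cfap65 had 1.06, 1.05, 0.739, 0.969 and 1.12 CPM in dehydrated libraries, against 1.48, 1.252, 1.64, 1.52 and 1.56 CPM in euhydrated libraries. The groups did not overlap (log2 fold change -0.59 ± 0.17, adjusted p by edgeR = 0.0355). Cfap74 had 2.18, 2.18, 1.996, 2.49 and 2.32 CPM in dehydrated libraries, against 3.36, 3.58, 3.07, 3.04 and 2.21 CPM in euhydrated libraries, with euhydrated 5 inside the dehydrated range (log2 fold change -0.45 ± 0.14, adjusted p by edgeR = 0.0484). Cfap65 lost its call without any 1 library except dehydrated 5 and euhydrated 2 (0.0539 to 0.0947), and Cfap74 without any except euhydrated 5 (0.0527 to 0.120).

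Hydin, a very large central pair protein whose loss causes hydrocephalus in mice, did not pass. It had 11.8, 10.8, 10.6, 13.0 and 13.2 CPM in dehydrated libraries, against 12.2, 12.4, 11.02, 11.2 and 13.2 CPM in euhydrated libraries (log2 fold change -0.02 ± 0.08, adjusted p by edgeR = 0.926). Cfap69 averaged 13.3 ± 0.716 CPM in dehydrated and 14.1 ± 0.216 CPM in euhydrated libraries (SD, n = 5 each; log2 fold change -0.08 ± 0.06 SE). Of the 12 central pair genes 4, Spag6, Spag16, Spag17 and Cfap221, were too low to test. Spag6 and Spag6l are close paralogues, so reads may have been split between them.

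Of the tektins, filament proteins of the doublet wall, 1 fell and 1 rose. Tekt5 (ENSRNOG00000002571), best known from sperm flagella, stood at 1.89, 1.83, 1.88, 3.37 and 1.76 CPM in dehydrated libraries, against 3.14, 2.93, 3.91, 3.80 and 2.86 CPM in euhydrated libraries. Dehydrated 4 lay inside the euhydrated range, and the 4 other dehydrated libraries lay close together below it. The log2 fold change was -0.64 ± 0.18 (adjusted p by edgeR = 0.0298), and -0.85 without dehydrated 4 (adjusted p by edgeR = 0.00151). Without dehydrated 1, 2, 3 or 5 or euhydrated 3 or 4 the call was lost (0.0674 to 0.0748).

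Tekt4 (ENSRNOG00000018792) rose, at 1.89, 2.26, 2.03, 2.49 and 1.96 CPM in dehydrated libraries, against 1.12, 2.18, 1.08, 1.33 and 0.906 CPM in euhydrated libraries. Euhydrated 2 alone reached the dehydrated values. The log2 fold change was 0.68 ± 0.21 (adjusted p by edgeR = 0.0471) and 0.93 without euhydrated 2 (0.00323), and the call was lost without any other 1 library (0.0589 to 0.101). Tekt1 and Tekt2 had log2 fold changes of -0.11 and 0.24 without passing. Of the inner proteins of the doublet, Cfap20 averaged 37.8 ± 1.14 CPM in dehydrated and 37.7 ± 1.65 CPM in euhydrated libraries (SD, n = 5 each), and Cfap52, Cfap45 and Cfap53 had log2 fold changes of -0.33, -0.18 and -0.06.

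Among the remaining Cfap genes Cfap44 (ENSRNOG00000028077), an axonemal protein whose loss malforms the sperm flagellum in mice, had the largest rise of the family. It stood at 4.04, 6.03, 4.80, 5.56 and 6.40 CPM in dehydrated libraries, against 4.73, 1.72, 3.07, 3.23 and 2.83 CPM in euhydrated libraries. Euhydrated 1 lay above dehydrated 1, and euhydrated 2 was the lowest library. The log2 fold change was 0.78 ± 0.21 (adjusted p by edgeR = 0.0305), 0.98 without euhydrated 1 (0.00323), and lost its call without dehydrated 2, 4 or 5 or euhydrated 3, 4 or 5 (0.0607 to 0.0708).

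Cfap43, known to work with Cfap44 as a tether of the inner arms in protists, had a log2 fold change of -0.38 ± 0.17 (adjusted p by edgeR = 0.171). Cfap57 had 1.49, 1.67, 2.14, 2.57 and 1.68 CPM in dehydrated libraries, against 2.60, 3.08, 2.62, 2.97 and 2.25 CPM in euhydrated libraries (log2 fold change -0.50 ± 0.16, adjusted p by edgeR = 0.0553). Dehydrated 4 alone overlapped the euhydrated range.

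Cfap410 and Cfap36 carry the family name but are known from the base of primary cilia and from non-ciliary sites as well. Cfap410 (ENSRNOG00000001215) fell, with 26.2, 29.0, 30.5, 27.9 and 29.7 CPM in dehydrated libraries, against 33.1, 34.7, 33.3, 31.5 and 34.2 CPM in euhydrated libraries and no overlap (log2 fold change -0.22 ± 0.05, adjusted p by edgeR = 0.00765). Cfap36 stood at 171 to 184 CPM in dehydrated and 169 to 177 CPM in euhydrated libraries (log2 fold change 0.01 ± 0.03, adjusted p by edgeR = 0.832).

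**Figure D2:**
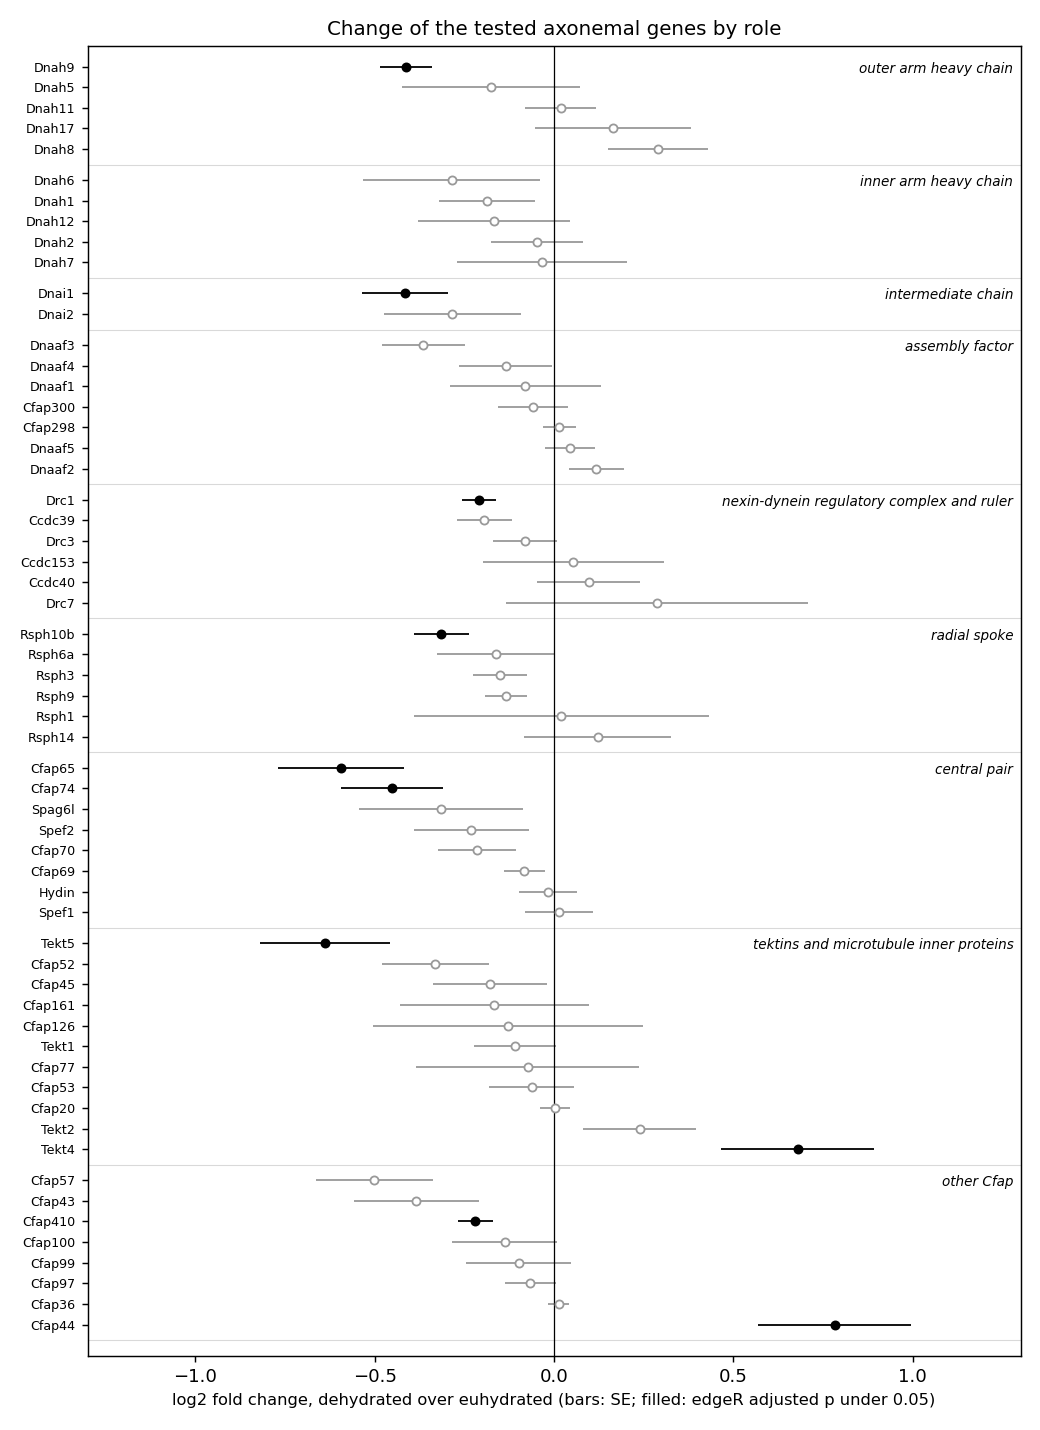
log2 fold change (dehydrated over euhydrated, bars SE) of the 58 axonemal genes tested, grouped by role; filled points have an edgeR adjusted p under 0.05. Of the 58 points 41 lie left of 0, and calls are scattered over the roles. The 5 inner arm heavy chains and 7 assembly factors hold 0 calls, against 12.7% of all genes tested, and are too few to read as a pattern.

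The authors' deposited table, made with DESeq2, gave adjusted p-values for 54 of the 70 genes, with 9 lower and 2 higher in dehydrated samples. Of all genes with an adjusted p in the authors' deposited table, 6.32% were lower and 9.05% higher. The genes that fell there were those of the edgeR fit and Cfap57 (log2 fold change -0.5, adjusted p = 0.0441 in the authors' deposited table).

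The mean log2 CPM over the 58 genes, a description of the list, was 1.99 to 2.09 in dehydrated and 2.12 to 2.17 in euhydrated libraries. Those ranges did not overlap. The summed level of all 70 genes was 606 to 664 CPM in dehydrated and 653 to 677 CPM in euhydrated libraries, with dehydrated 4 inside the euhydrated range. With group means removed, the median pairwise correlation of log2 CPM over the 10 libraries was 0.0033 among the 58 genes and 0.00015 among all genes tested.

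Other genes of the motile axoneme, whose symbols the rule does not match, were read from a list of their own. Of 61 tested, 2 rose, 2 fell and 57 did not pass, with a median log2 fold change of -0.02. The called share was 6.56%, against 12.7% of all genes tested. Maats1, a radial spoke gene also called Cfap91, rose, with 13.4, 12.5, 14.2, 12.2 and 15.4 CPM in dehydrated libraries, against 10.1, 10.6, 10.2, 11.3 and 11.6 CPM in euhydrated libraries and no overlap (log2 fold change 0.33 ± 0.08, adjusted p by edgeR = 0.00945). Ttc25, which docks outer arms, rose (log2 fold change 0.46 ± 0.14, adjusted p by edgeR = 0.0439), and Iqcd, of the nexin-dynein regulatory complex, and Iqub fell (log2 fold changes of -0.28 and -0.22, adjusted p by edgeR = 0.0309 and 0.0411). The mean log2 CPM of this list was 2.05 to 2.16 in dehydrated and 2.09 to 2.19 in euhydrated libraries.

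The list of ciliogenesis regulators, which holds the Rfx family, gave 0 calls among 12 tested in edgeR, DESeq2 and limma-voom, with 1 at an unadjusted p under 0.05. With 12.7% of all genes tested passing in edgeR, 0 of 12 says little about this list. Rfx2 and Rfx3, the members of the Rfx family best known for binding the X-box of ciliary genes, were picked out after their values were seen and had log2 fold changes of -0.0048 and -0.12 (adjusted p by edgeR = 0.968 and 0.492). Rfx5, known from the X-box of MHC class II promoters, and Rfx7 had the highest CPM of the list, with log2 fold changes of -0.14 and -0.06 (adjusted p by edgeR = 0.072 and 0.498). Mcidas and Ccno, switched on while multiciliated cells form, had at most 2 counts in any library.

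In the list of intraflagellar transport, which builds motile and primary cilia alike, 1 of 31 genes rose, 1 fell and 29 did not pass. The called share was 6.45%, against 12.7% of all genes tested. Ttc26 rose (log2 fold change 0.23 ± 0.07, adjusted p by edgeR = 0.0293) and Ift52 fell by 0.12 on the log2 scale (adjusted p by edgeR = 0.0479). In the primary cilium list, 2 of 29 rose and 3 fell. That share, 17.2%, was the same as among the axonemal genes of the rule. Mchr1, the receptor of melanin-concentrating hormone, which sits in neuronal primary cilia, had 16.6, 16.8, 15.5, 17.4 and 14.7 CPM in dehydrated libraries, against 10.2, 11.1, 10.0, 12.4 and 9.38 CPM in euhydrated libraries. Every dehydrated library was above every euhydrated one (log2 fold change 0.61 ± 0.08, adjusted p by edgeR = 0.000103). Tub, Ttc8 and Bbs7, which act in traffic to the cilium, fell (log2 fold changes of -0.24, -0.21 and -0.17, adjusted p by edgeR = 0.000636, 0.027 and 0.0404).

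Markers of ependymal cells, the carriers of motile cilia in the brain, ranged from abundant to barely detected. Of 14 listed outside the rule 11 were tested. Tppp3 averaged 135 CPM in dehydrated and 130 CPM in euhydrated libraries, Rarres2 33.8 CPM in dehydrated and 32.7 CPM in euhydrated libraries, and Enkur 11.1 CPM in dehydrated and 9.62 CPM in euhydrated libraries. Mia, Meig1 and Tmem212 were too low to test: Tmem212 had 0 to 2 counts in dehydrated and 0 to 3 counts in euhydrated libraries, Meig1 had 1 to 4 counts in dehydrated and 0 to 9 counts in euhydrated libraries. Sntn, of the list of other axonemal genes, had 0 counts in all 10 libraries. Of the 11 tested ependymal markers 2 fell, Pltp and Cd24 (log2 fold changes of -0.20 and -0.38, adjusted p by edgeR = 0.00222 and 0.0167). S100b and Sox9 of this list are also in the astrocyte list. Tppp3 and Enkur are also in the list of other axonemal genes, so these lists are not independent readings. Summed, the tested and untested markers stood at 2457 to 2958 CPM in dehydrated and 2531 to 2828 CPM in euhydrated libraries. S100b alone made up most of that sum, at 1748 to 2178 CPM in dehydrated and 1770 to 2066 CPM in euhydrated libraries. The sum therefore cannot be read as the level of ependymal cells. The mean log2 CPM of the tested markers was 4.72 to 4.92 in dehydrated and 4.77 to 4.96 in euhydrated libraries. With this mean as a covariate 3 axonemal genes remained lower in edgeR, Dnah9, Drc1 and Cfap410, and 0 higher. Calls over all genes tested fell to 390 lower and 884 higher, against 750 and 1192 without the covariate. The SE of all 10 called genes was wider and the change was smaller for 4 of them.

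Markers of other cell types that a punch could hold were read beside these results. With 12.7% of all genes tested passing in edgeR, the counts of calls in such short lists, the ependymal markers included, say little. Choroid plexus genes Clic6 and Slc4a5 fell (log2 fold changes of -0.59 and -0.79, adjusted p by edgeR = 0.00524 and 0.0189), and of 13 tested genes of that list 0 were higher in edgeR and limma-voom and 1 in DESeq2, with 2 higher at an unadjusted p under 0.05. The summed level of the list was 293 to 346 CPM in dehydrated and 304 to 370 CPM in euhydrated libraries. Enpp2 alone made up most of that sum, at 175 to 225 CPM in dehydrated and 207 to 252 CPM in euhydrated libraries. Ttr averaged 7.01 CPM in dehydrated and 10.2 CPM in euhydrated libraries. This sum cannot be read as the level of choroid plexus either. Oligodendrocyte genes Opalin and Cnp fell by 0.25 and 0.27 on the log2 scale (adjusted p by edgeR = 0.00105 and 0.0327), 2 of 10. Of 9 neurone markers Uchl1 and Tubb3 rose and Nefl fell (adjusted p by edgeR = 0.000912, 0.00255 and 0.00519). Erythrocyte markers had a summed level of 591 to 1429 CPM in dehydrated and 1029 to 2059 CPM in euhydrated libraries, with Slc4a1 lower (log2 fold change -1.52, adjusted p by edgeR = 0.0291). With the erythrocyte level as a covariate 4 axonemal genes were lower in edgeR, Dnah9, Drc1, Cfap410 and Rsph10b, and 0 higher, and of all genes tested 155 were lower and 492 higher. The SE of all 10 called genes was wider in that fit, and the change was smaller for 2 of them; the log2 fold change of Cfap74, for one, was -0.62 with the covariate, against -0.45 without it. Of 9 tanycyte markers 1 fell, Col25a1, and of 10 astrocyte markers 1 rose, Aldoc (adjusted p by edgeR = 0.000701 and 0.0438). Of 8 leptomeningeal markers 0 passed in edgeR and limma-voom and 1 was higher in DESeq2, with 1 at an unadjusted p under 0.05. The part of the other lists in the axonemal changes was not tested.

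**Figure D3:**
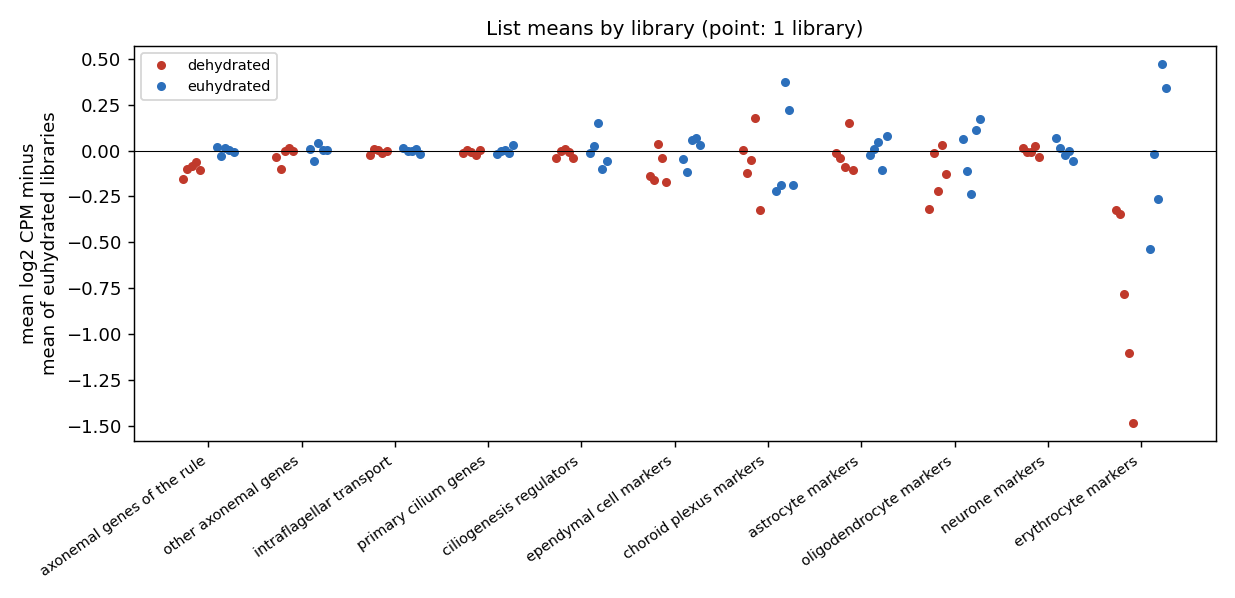
Mean log2 CPM of each gene list in each dehydrated (red, left) and euhydrated (blue, right) library, less the mean of the euhydrated libraries. The axonemal genes of the rule lie lower in all 5 dehydrated libraries, and erythrocyte markers spread most. The other axonemal, intraflagellar transport and primary cilium lists overlap between groups. Ependymal and oligodendrocyte markers overlap too, but their group means differ by a like amount (-0.096 and -0.13, against -0.10 for the axonemal genes of the rule).

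Dnah9, Drc1 and Cfap410 passed under every alternative run, edgeR, DESeq2 and limma-voom included, with adjusted p-values of at most 0.0261, 0.030 and 0.0446, and also at a threshold of 0.01. Rsph10b lost its call at 0.01 and with the ependymal covariate (adjusted p by edgeR = 0.0934). The 6 other calls ended in at least 9 alternatives each.

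**Figure D4:**
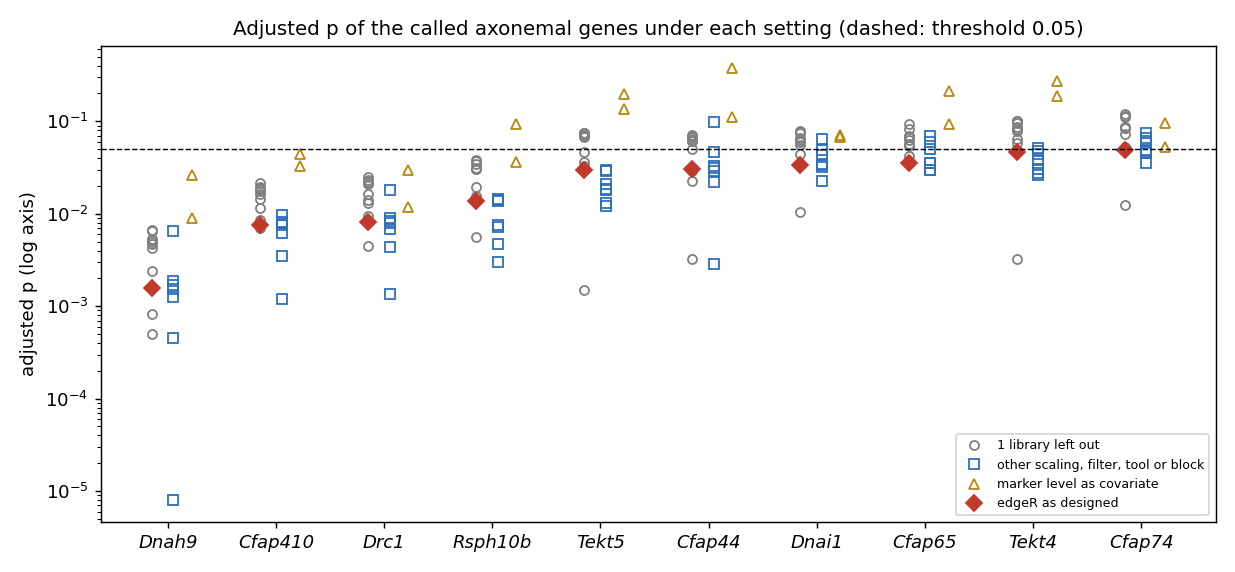
Adjusted p (log axis) of the 10 called axonemal genes as designed in edgeR (red diamonds), with 1 library left out (grey circles), under other scalings, filters, tools or the block (blue squares) and with a marker level as covariate (yellow triangles). All points of Dnah9, Cfap410 and Drc1 lie below the dashed line at 0.05, and those of the 6 genes to the right of Rsph10b lie on both sides of it.

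Promoters were searched for the X-box, the site bound by Rfx factors in ciliary genes, which is known in worms and mammals. RefSeq promoters of the build GRCr8, from 250 bases before to 50 after each start, were found for 58 of the 70 genes, 51 of them tested. The relaxed X-box, GTNNCC and GGNNAC with any 2 bases between them on either strand, was in 15.5% of these promoters and 1.86% of all 27457 promoters. The stricter X-box, GTTGCC and GGNAAC with AT between them, is contained in it and was in 1.72% and 0.0765%. The half-site GTTGCC, on either strand and often inside the longer motifs, was in 32.8% and 12.2%. The forkhead motif GTAAACA, on either strand, was in 5.17% and 3.76%. Of the 8 called genes with a promoter in the table, 0 held the relaxed X-box, 4 the half-site and 0 the forkhead motif. These matches are descriptions of letters, not of binding.

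Shown first are 4 promoter stretches with a relaxed X-box before the start, in capitals, so that the sites can be compared; none of these genes passed the test. They lie at chr10:54766027-54766146 (Dnah2, minus strand), chr6:93406345-93406464 (Dnaaf2, minus strand), chr11:43677513-43677632 (Cfap298, minus strand) and chr11:97677720-97677839 (Spag6l, plus strand) of GRCr8.
Dnah2: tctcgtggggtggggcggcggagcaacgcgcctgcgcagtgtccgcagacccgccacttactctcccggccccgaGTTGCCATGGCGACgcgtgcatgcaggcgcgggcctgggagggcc
Dnaaf2: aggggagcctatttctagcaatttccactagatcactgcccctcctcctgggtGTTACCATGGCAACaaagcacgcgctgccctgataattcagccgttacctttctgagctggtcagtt
Cfap298: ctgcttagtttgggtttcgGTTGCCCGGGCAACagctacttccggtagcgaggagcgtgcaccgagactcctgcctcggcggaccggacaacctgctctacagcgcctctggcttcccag
Spag6l: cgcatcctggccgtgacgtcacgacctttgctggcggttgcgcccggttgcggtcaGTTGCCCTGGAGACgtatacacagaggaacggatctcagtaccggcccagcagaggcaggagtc

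The 3 called genes with a half-site before the start are shown for contrast, with the half-site, read on the opposite strand as GGCAAC, in capitals. They lie at chr6:31779257-31779336 (Drc1, minus strand), chr11:69789906-69789985 (Cfap44, minus strand) and chr5:171261106-171261185 (Cfap74, plus strand) of GRCr8. Drc1 and Cfap74 fell and Cfap44 rose. Whether the half-site goes with the direction of change was not tested, and 3 genes are too few to show it.
Drc1: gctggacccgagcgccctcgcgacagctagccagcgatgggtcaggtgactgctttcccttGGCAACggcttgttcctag
Cfap44: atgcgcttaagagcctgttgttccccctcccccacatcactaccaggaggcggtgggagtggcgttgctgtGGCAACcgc
Cfap74: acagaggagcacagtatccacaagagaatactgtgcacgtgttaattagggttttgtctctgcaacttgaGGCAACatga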

How the data were processed

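STAR, featureCounts and DESeq2 1.28.1 are among the tools named, without their role, in the submitters' processing notes. The sources used here do not give the genome build, annotation or strand setting, so overlapping or near-identical genes are uncertain. The authors deposited raw counts per Ensembl gene, and a table of their own comparison from which log2 fold changes and adjusted p-values (p-value column) were taken, per the file headers. Gene symbols came from that table. Count columns euhydrated 3, 4 and 5 were tied to their group only, because their numbers match the labels of different samples. No pair of libraries in a group agreed within counting error, so each was counted once.

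Genes were filtered with filterByExpr, scaled by TMM and compared with edgeR 4.0.16 (quasi-likelihood, robust) in R 4.3.3, with no covariate; adjusted p-values are Benjamini-Hochberg over all genes tested. limma 3.58.1 and DESeq2 1.42.0 were alternatives. The edgeR step was tested on simulated data. The members and lists were chosen with earlier results of these data known. Named were all called members, the 8 with the highest CPM, the 6 with the largest changes, the highest of each role, Hydin, Ccdc153, and up to 4 called genes of each other list, or the 2 with the highest CPM where none passed; members added for context in their role were chosen after their values were seen.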

Additional observations from a re-analysis of the deposited data

Results flagged for a closer look

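In 3 of the 38 groups of 5 libraries examined, those of the 19 named axonemal genes, 1 library stood far from the 4 others; chance gives about 1 in 20. Tekt5 was at 3.37 CPM in dehydrated 4, against 1.76 to 1.89 CPM in the other dehydrated libraries. Cfap298 was at 54.4 CPM in dehydrated 4, against 47.5 to 49.3 CPM in the other dehydrated libraries. Dnai1 was at 2.78 CPM in euhydrated 4, against 3.59 to 3.90 CPM in the other euhydrated libraries. Without euhydrated 4 the log2 fold change of Dnai1 was -0.49 (edgeR adjusted p = 0.0105).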

How the results depend on the processing

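The 8 lower and 2 higher axonemal genes were 8 and 2, the same genes, with DESeq2 size factors and the stricter filter. They were also 8 and 2 in DESeq2 and limma-voom, with Cfap57 in place of Cfap65 in DESeq2 and of Cfap74 in limma-voom, 6 and 2 without a filter, and 10 and 1 with library totals. They were 3 and 0 at a threshold of 0.01 (all genes 233 lower and 658 higher), 4 and 0 with the erythrocyte level (155 and 492) and 3 and 0 with the ependymal level (390 and 884) as a covariate, both chosen after seeing the data. The absolute change was smaller for 2 of the 10 genes with the erythrocyte and 4 with the ependymal level. With 1 library left out, 4 to 9 were lower and 0 to 2 higher (all genes 516 to 689 lower and 955 to 1113 higher). With a replicate block by column number 7 were lower and 1 higher, and 6 of the 10 calls were kept. Correlations of the deviations of same-numbered libraries ran from -0.068 to 0.141, and 1 of 5 dehydrated libraries correlated best with its own number. These values showed no pairing by number but cannot exclude one, because euhydrated columns 3, 4 and 5 were tied to their group only. With library totals the median over all genes tested was -0.033 on the log2 scale, against -0.0058 with TMM, and this scaling turned Cfap36 (-0.015), Cfap298 (-0.013) and Cfap20 (-0.025) negative. The erythrocyte covariate turned Cfap36 (-0.000555), Cfap298 (-0.0040) and Ccdc153 (-0.46) negative, and the ependymal covariate turned Ccdc153 (-0.14). Over the fits without 1 library, log2 fold changes also crossed 0 for Cfap36 (-0.00394 to 0.0221), Cfap298 (-0.0197 to 0.0348), Cfap20 (-0.0112 to 0.0262), Hydin (-0.0576 to 0.0226) and Ccdc153 (-0.161 to 0.207), which had not passed; the cause was not tested. Depth limits the 12 genes too low to test and those near 1 CPM.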
